A study of Mus musculus with 8 samples.

Results

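The genes described here belong to the cell's thiol and antioxidant defence. They are Nfe2l2, Keap1, Nqo1, Hmox1, Gclc, Gclm, Gsr, Txnrd1, Gpx1 and Gpx4, 10 of the 55536 genes of the deposited count table. They were chosen by name and matched to the symbols of the table, and all 10 were found. The RNA came from alphaTC6 cells, a mouse line of glucagon-producing pancreatic alpha cells. Lines of this name were derived from tumours of mice in which the glucagon gene promoter drives the SV40 large T antigen. Cells with the genotype label WT were reverse transfected for 48 h with RNAiMax carrying either siRNA against Klf4 (4 libraries) or a scramble siRNA as the control (4 libraries). All groups therefore received lipid reagent and siRNA. Batch 1 held scramble replicates 1 and 2 and Klf4 siRNA replicates 1, 2 and 4. Batch 2 held scramble replicates 3 and 4 and Klf4 siRNA replicate 3. The labels give the batch as a number only, and their extraction text names isolated islets where the sample labels name the cell line. The replicates are called biological in the study's design text, without saying what was repeated.

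NRF2, the protein of Nfe2l2, is a transcription factor that is held at low levels by KEAP1, an adaptor that hands it to a CUL3 ubiquitin ligase for degradation. Oxidants and electrophiles modify cysteines of KEAP1, NRF2 then accumulates, pairs with small MAF proteins and binds antioxidant response elements near genes for glutathione synthesis, thiol reduction, quinone reduction and heme breakdown. NRF2 is thus controlled mainly at the protein level, which RNA counts do not measure. Islet cells are known for low activity of several hydrogen peroxide removing enzymes, above all beta cells.

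Short sequences that some of these genes carry are shown first. One is the core of the antioxidant response element in the promoters of NRF2 targets, and it is shown because NRF2 binds it. Promoters of 300 bases (250 before and 50 after the RefSeq start site, GRCm38.p6) were given for 7 of the 10 genes, with 12 start sites in all. Those of Gclc, Gsr and Hmox1 were not analysed here. The core TGACNNNGC, searched on both strands, was found in 3 of these 12 promoters and in 12.4% of all 32851 promoters of the table. The matches, in capitals within 29 bases read 5′ to 3′ on the gene's own strand, were these.
Nfe2l2, chr2:75704885-75704913, minus strand: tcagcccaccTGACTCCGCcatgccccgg
Gclm, chr3:122245413-122245441, plus strand: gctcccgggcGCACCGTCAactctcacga
Txnrd1, chr10:82859104-82859132, plus strand: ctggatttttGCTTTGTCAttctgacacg
In Gclm and Txnrd1 the core lies on the opposite strand, so its reverse complement is in capitals. The first base of the match was 240, 134 and 92 bases before the start site in Nfe2l2, Gclm and Txnrd1, where the Txnrd1 match belongs to 1 of its 3 start sites.

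Because KLF4 was the factor depleted, the GC-rich core GGGNGTGG that KLF proteins bind was searched in the same way. It was found in 3 of the 12 promoters, those of Keap1, Gclm and Txnrd1, and in 17.6% of all promoters. It shared no base with the matches above. Gclm and Txnrd1 did not pass the test for Klf4 siRNA below, and Gpx4, which was lower there, had no match. The match in Keap1 is shown because Keap1 RNA was lower after Klf4 siRNA. It began at base 5 counted from the RefSeq start site and lies on the opposite strand.
Keap1, chr9:21239310-21239338, minus strand: ccgcccagacCCACGCCCtgctccctccg
A match of letters is not a measured binding site, and no binding was measured in these samples.

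The other feature, found in 3 of the 10 genes, is an in-frame TGA codon. TXNRD1, GPX1 and GPX4 are selenoproteins, in which TGA is read as selenocysteine, the reactive residue of the active site, and not as a stop. The annotation (GENCODE M21, GRCm38) places this codon at chr10:82896037-82896039 in Txnrd1, chr9:108339451-108339453 in Gpx1 and chr10:80054737-80054739 in Gpx4, each on the plus strand. The codon is in capitals within the surrounding 29 bases of the transcript. These are shown because Gpx4 passed the test below whereas Txnrd1 and Gpx1 did not, although the interval of Gpx1 includes the fall of Gpx4. A link between these bases and the RNA level was not tested.
Txnrd1, codon 498 of 499: ccagtctggctgcTGAggttaagccccag
Gpx1, codon 47 of 201: tgtcgcgtctctcTGAggcaccacgatcc
Gpx4, codon 73 of 197: cgtggcctcgcaaTGAggcaaaactgacg
The codon is the last but one in Txnrd1 (in the transcripts of 499 codons) and lies in the first part of the coding sequence in Gpx1 and Gpx4 (in the Gpx4 transcript of 197 codons).

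Library totals ran from 45954151 to 64185987 counts. Klf4, the targeted gene, had 39.2, 35.1, 46.3 and 46.8 CPM (counts scaled to a common library size, TMM factors included) in scramble replicates 1 to 4 and 12.5, 11.5, 19.8 and 18.8 CPM in Klf4 siRNA replicates 1 to 4, so every knockdown library lay below every control. Its fitted log2 fold change was -1.33 (edgeR adjusted p = 0.0083), with an adjusted p of 0.052 without scramble replicate 1. Alpha cell RNAs were present: Gcg, the glucagon gene, had at least 52428 counts in each library, and the 9 alpha cell markers summed to 6544 to 14535 CPM in scramble libraries and, after Klf4 siRNA, 6358 to 13180 CPM. Ins1, Ins2 and Ucn3, which define beta cells, had 0 counts in all libraries, and the 6 beta cell markers summed to at most 4.00 CPM in scramble libraries and, after Klf4 siRNA, 3.99 CPM. Gcg itself was higher in batch 2 by 2.80 (log2; edgeR adjusted p = 2.17e-17), and had a log2 fold change of -0.18 after Klf4 siRNA (0.0095). Its part in the results below was not tested. The 4 markers of other islet cells, the 5 of acinar or duct cells and the 6 of endothelial, stromal or immune cells summed to at most 0.448, 0.109 and 2.81 CPM in any library. In these bulk samples, fewer cells with an RNA and less RNA per cell cannot be told apart.

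All 10 genes passed the filter on low counts, and their levels differed widely. Per kilobase of exon (the union of annotated exons), Gpx4, which reduces lipid hydroperoxides in membranes, was highest at 154.5 to 207.8 CPM per kb over the 8 libraries. Txnrd1, the cytosolic thioredoxin reductase, followed at 67.4 to 70.9 CPM per kb. Hmox1, which breaks down heme, had 49.3 to 69.8 CPM per kb, and Gsr, which regenerates glutathione from its disulfide, had 57.5 to 61.7 CPM per kb. Gpx1, the main cytosolic glutathione peroxidase, had 39.7 to 57.3 CPM per kb. Within this group the ranges of Txnrd1 and Hmox1, of Hmox1 and Gsr and of Hmox1 and Gpx1 overlapped, whereas that of Gpx4 lay above all others.

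Lower in the order came Keap1 (22.1 to 25.9 CPM per kb) and Gclm (20.6 to 24.2 CPM per kb), whose ranges overlapped. Gclc, the catalytic subunit of glutamate-cysteine ligase, had 13.8 to 16.2 CPM per kb, and Nfe2l2 had 10.2 to 11.0 CPM per kb. Gclm encodes the modifier subunit of the same ligase, and its level per kb was 1.49 to 1.60 times that of Gclc in the 8 libraries. Nqo1, a quinone reductase and a widely used NRF2 target, was far lower, at 0.212 to 0.534 CPM per kb, from 19 to 50 counts per library. By mean level per kb, Gpx4 exceeded 99.1% of the tested genes and Nqo1 exceeded 17.9%. Other NRF2 targets, Gclm, Txnrd1 and Hmox1, thus lay far above Nqo1 in the same libraries.

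**Figure D1:**
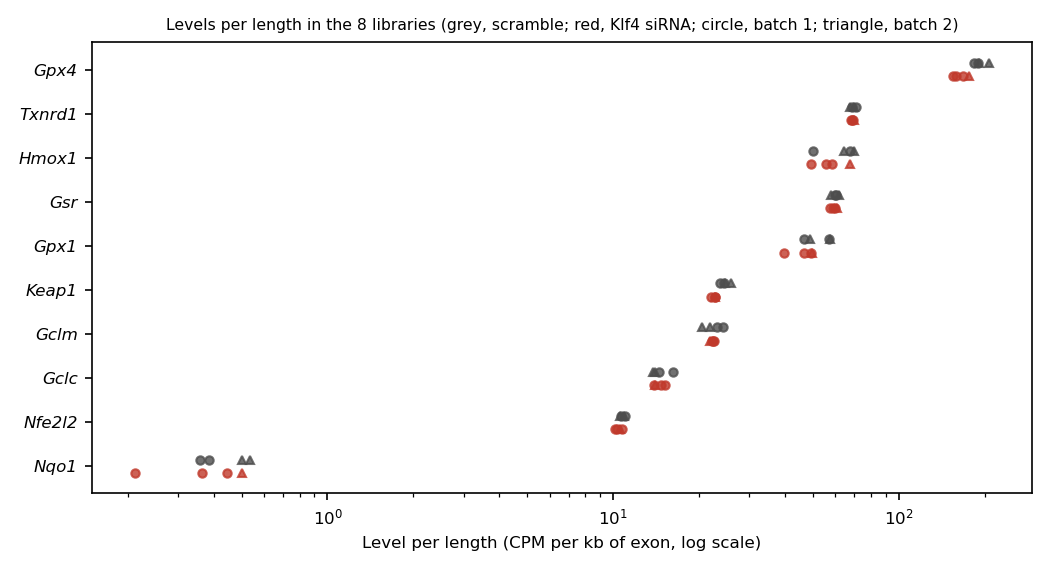
Level per length of the 10 genes, in CPM per kb of exon on a log axis, with 1 point per library (grey, scramble; red, Klf4 siRNA; circles, batch 1; triangles, batch 2). Gpx4 lies at 154.5 to 207.8, and Nqo1 at 0.212 to 0.534, apart from all others.

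Treatment was compared first, in a model that also held batch. Of the 10 genes, 2 passed the threshold (edgeR quasi-likelihood, Benjamini-Hochberg adjusted p under 0.05 over all 16333 tested genes). Gpx4 and Keap1 were both lower. Among all tested genes 11.7% passed, 6.81% lower and 4.88% higher, so 2 of 10 is a count near the background and is no result about the group. The median log2 fold change of the 10 genes was -0.057, against 0.000043 for all tested genes. All 10 fitted values were negative, but 8 of them did not pass.

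**Figure D2:**
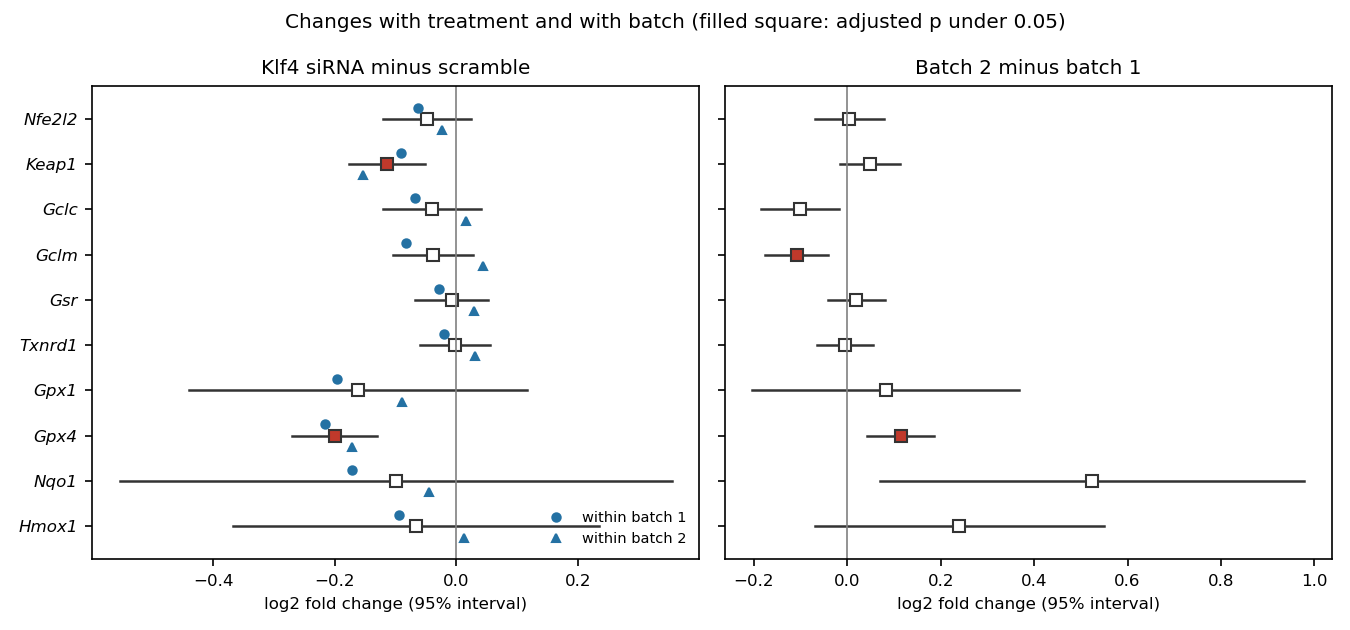
Log2 fold changes (squares, with 95% intervals) of the 10 genes for Klf4 siRNA minus scramble (left) and for batch 2 minus batch 1 (right); filled squares passed an adjusted p of 0.05, and blue circles and triangles are the differences within batch 1 and batch 2. Gpx4 (-0.20) and Keap1 (-0.11) are filled on the left and Gclm (-0.11) and Gpx4 (0.11) on the right.

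Nfe2l2 (ENSMUSG00000015839, chromosome 2, 75675513 to 75704641, GRCm38), which encodes NRF2 itself, did not pass the threshold. It had 40.6, 41.8, 40.1 and 41.6 CPM in scramble replicates 1 to 4 and, after Klf4 siRNA, 39.0, 40.7, 40.2 and 38.6 CPM in the same order. Its log2 fold change was -0.048 with a 95% interval of -0.12 to 0.024 (edgeR adjusted p = 0.447), and the difference was -0.062 within batch 1 and -0.023 within batch 2. The 8 libraries differed little, and the treatments overlapped.

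Keap1 (ENSMUSG00000003308, chromosome 9, 21229730 to 21239361) was measured at 115, 111, 116 and 122 CPM in scramble replicates 1 to 4. In Klf4 siRNA replicates 1 to 4 it was at 107, 107, 107 and 104 CPM. The groups did not overlap, as for 10.5% of all tested genes in either direction, and the Klf4 siRNA libraries lay closer together than the controls. Keap1 fell from 116 ± 4.44 to 106 ± 1.69 CPM (SD, n = 4 each). With batch in the model, the log2 fold change was -0.11 ± 0.030 (SE; edgeR adjusted p = 0.015). The level fitted in this way was 92.4% of the control. The difference was -0.091 within batch 1 and -0.15 within batch 2. The call was lost without scramble replicate 1 (edgeR adjusted p = 0.101), and likewise when Klf4 siRNA replicate 3 was omitted (0.172), in batch 1 alone (0.135) and without the batch term (0.097). An antisense annotation, Gm16754, overlaps exons of Keap1 and had at most 69 counts, against at least 5221 for Keap1.

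**Figure D3:**
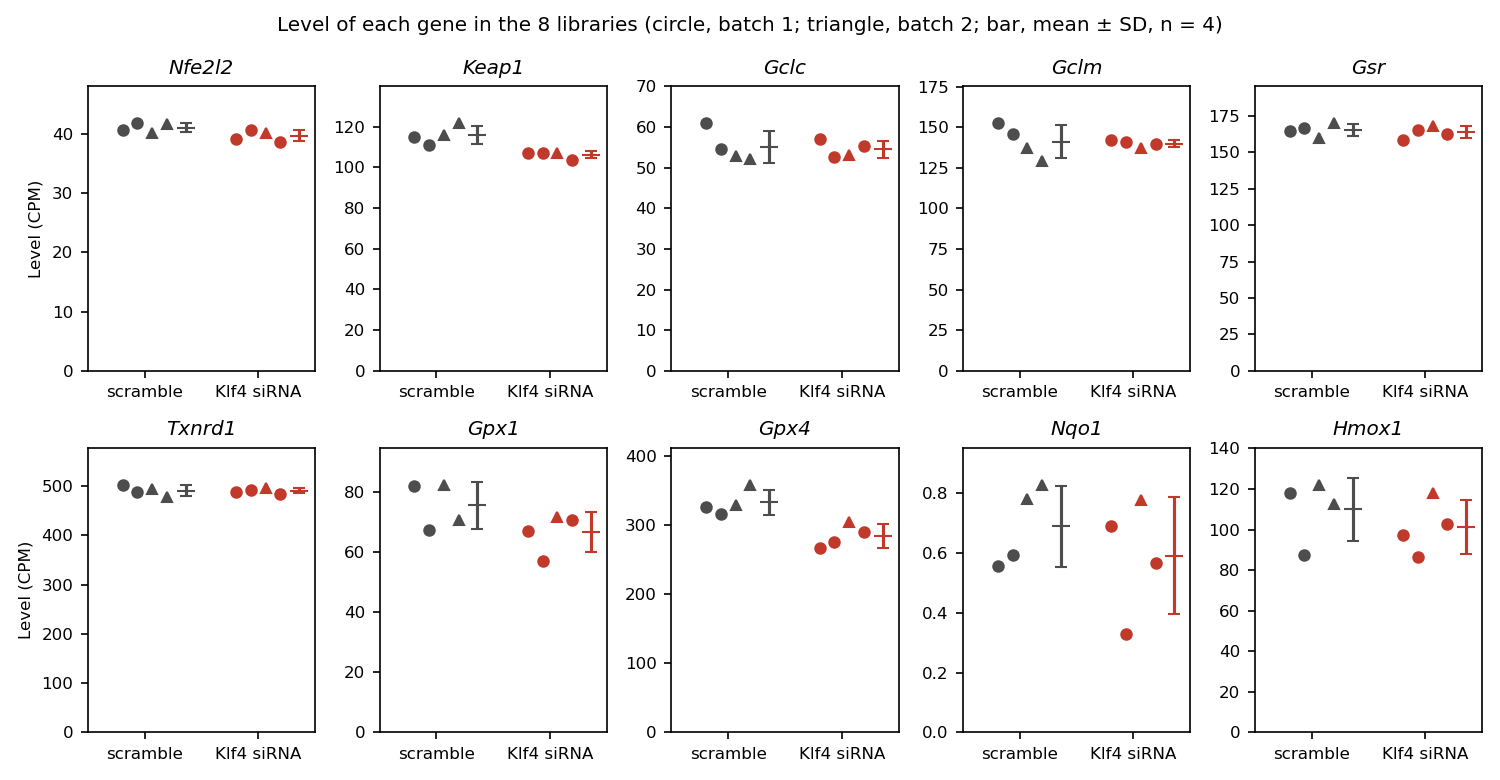
Level of each of the 10 genes in CPM, with 1 point per library (grey, scramble; red, Klf4 siRNA; circles, batch 1; triangles, batch 2) and the mean ± SD of the 4 libraries beside the points; every axis starts at 0. For Gpx4 and Keap1 all red points lie below all grey points, and for the other 8 genes the treatments overlap.

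The enzymes of glutathione synthesis also did not pass. Gclc (ENSMUSG00000032350, chromosome 9, 77754535 to 77794485) had 60.9, 54.5, 52.9 and 52.0 CPM in scramble replicates 1 to 4 and, after Klf4 siRNA, 57.0, 52.5, 53.0 and 55.4 CPM in the same order (log2 fold change -0.040, 95% interval -0.12 to 0.041, edgeR adjusted p = 0.598). Gclm (ENSMUSG00000028124, chromosome 3, 122245557 to 122270732) had 153, 146, 137 and 129 CPM in scramble replicates 1 to 4 and, after Klf4 siRNA, 142, 141, 137 and 139 CPM in the same order (log2 fold change -0.038, 95% interval -0.10 to 0.028, edgeR adjusted p = 0.526). The value for Gclm moved to -0.0055 or -0.057 when the fit omitted scramble replicate 1 or 4, and to -0.083 when replicate 3 of Klf4 siRNA was omitted, none past the threshold. In batch 1 all 3 Klf4 siRNA libraries lay below both controls for Gclm (difference -0.082), whereas in batch 2 the single Klf4 siRNA library lay level with the higher control (137.2 against 137.1 CPM, difference 0.043 from the mean of both). The interaction of batch and treatment for Gclm had an unadjusted p of 0.060 and an adjusted p of 0.999 (edgeR), so a difference between batches was not shown. Annotations that overlap exons of Gclm, Gm17494 on the opposite strand and the processed pseudogene Gm6061, had at most 111 and 23 counts.

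Gsr and Txnrd1, the reductases that draw on NADPH to keep glutathione and thioredoxin reduced, had the smallest differences of the 10 genes. Gsr (ENSMUSG00000031584, chromosome 8, 33652523 to 33698163) had 160 to 170 CPM over scramble and 158 to 168 CPM over Klf4 siRNA libraries. Its log2 fold change was -0.0078 with a 95% interval of -0.067 to 0.052 (edgeR adjusted p = 0.915). Txnrd1 (ENSMUSG00000020250, chromosome 10, 82833951 to 82897712) had 477 to 502 CPM over scramble and 484 to 496 CPM over Klf4 siRNA libraries. Its log2 fold change was -0.0020 with a 95% interval of -0.060 to 0.055 (edgeR adjusted p = 0.980). These are narrow intervals, which leave out a fall of the size fitted for Keap1 or Gpx4.

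Gpx4 (ENSMUSG00000075706, chromosome 10, 80047166 to 80056439) protects membranes from lipid peroxidation and is the enzyme whose loss permits ferroptosis. It had 327, 316, 329 and 358 CPM in scramble replicates 1 to 4. In Klf4 siRNA replicates 1 to 4 it had 266, 275, 305 and 289 CPM. The highest Klf4 siRNA library lay below the lowest scramble library, so these groups did not overlap either.

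The level of Gpx4 fell from 333 ± 18.0 to 284 ± 16.9 CPM (SD, n = 4 each). With batch in the model, the fitted level was 87.0% of the control. The log2 fold change was -0.20 ± 0.033 (SE), with a 95% interval of -0.27 to -0.13 (edgeR adjusted p = 0.00035). The difference was -0.22 within batch 1 and -0.17 within batch 2. When batch was not in the model, the log2 fold change was -0.23 and missed the threshold (edgeR adjusted p = 0.055). Gpx4-ps2, a processed copy of Gpx4, had 7.65% to 8.86% as many counts as Gpx4 in the 8 libraries, and reads could be shared between them. With the counts of both summed, the log2 fold change was -0.20 (edgeR adjusted p = 0.00053).

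Gpx1 (ENSMUSG00000063856, chromosome 9, 108338903 to 108340343) varied more between libraries. It had 82.0, 67.3, 82.6 and 70.7 CPM in scramble replicates 1 to 4 and 67.2, 57.2, 71.9 and 70.9 CPM in Klf4 siRNA replicates 1 to 4. The log2 fold change was -0.16 ± 0.11 (SE), with a 95% interval of -0.44 to 0.12 (edgeR adjusted p = 0.469). Without scramble replicate 1 it was -0.070, and without Klf4 siRNA replicate 2 it was -0.11 (edgeR adjusted p = 0.801 and 0.566). A fall as large as that of Gpx4 therefore lies within the interval of Gpx1, and the data do not separate these peroxidases.

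Hmox1 (ENSMUSG00000005413, chromosome 8, 75093621 to 75100589), an inducible stress gene, had 118, 87.5, 122 and 112 CPM in scramble replicates 1 to 4. In Klf4 siRNA replicates 1 to 4 it had 97.3, 86.4, 118 and 103 CPM. Replicate 2 was lowest in both treatments for Hmox1 and for Gpx1, and these libraries also had the smallest share of mitochondrially encoded counts of their treatment, 4.51% in scramble and 4.11% in Klf4 siRNA, against 4.63% to 5.89% in the others. The part of this share in the levels of Hmox1 and Gpx1 was not tested. The log2 fold change of Hmox1 was -0.066 with a 95% interval of -0.37 to 0.24 (edgeR adjusted p = 0.819). The differences within batch 1 (-0.095) and batch 2 (0.013) had opposite signs.

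Nqo1 (ENSMUSG00000003849, chromosome 8, 107388225 to 107403206) had 31, 28, 50 and 48 counts in scramble replicates 1 to 4 and 34, 19, 41 and 30 counts in Klf4 siRNA replicates 1 to 4. Its log2 fold change was -0.10 with a 95% interval of -0.55 to 0.35 (edgeR adjusted p = 0.847). At this depth only a large change could have been detected.

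Batch was the second comparison, taken from the same fit. Of the 10 genes, 2 differed between batches, 1 in each direction, against 32.7% of all tested genes (16.8% higher and 15.9% lower in batch 2). Gclm was lower in batch 2, at 137 and 129 CPM in scramble libraries and, after Klf4 siRNA, 137 CPM, against 139 to 153 CPM in the 5 libraries of batch 1. Its batch difference on the log2 scale was -0.11 ± 0.033 (SE; edgeR adjusted p = 0.014), and the batches did not overlap, as for 29.4% of all tested genes. It did not pass without scramble replicate 1 (0.101) or without scramble replicate 4 (0.076). Gpx4 was higher in batch 2 by 0.11 ± 0.034 (SE; edgeR adjusted p = 0.014), and this call was lost when the fit omitted scramble replicate 2 (0.063), scramble replicate 4 (0.068) or replicate 3 of Klf4 siRNA (0.161). It was also lost when libraries were scaled by their totals alone (0.073) and in scramble libraries alone (0.150).

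Gclc had a batch difference close to that of Gclm, -0.10 ± 0.040 (SE), and did not pass (edgeR adjusted p = 0.060). It passed in 4 of 15 alternatives, namely with library size alone (0.017), with no filter (0.033), and when Klf4 siRNA replicate 2 (0.023) or scramble replicate 2 (0.032) was omitted. Without scramble replicate 1 it was -0.055 (edgeR adjusted p = 0.350). Nqo1 had no overlap between batches in CPM and a batch difference of 0.52 ± 0.22 (SE), also short of the threshold (edgeR adjusted p = 0.073). It passed in 1 of 15 alternatives, the fit without replicate 1 of Klf4 siRNA (0.61, edgeR adjusted p = 0.041). Hmox1 had 0.24 ± 0.12 (SE; edgeR adjusted p = 0.212), and 0.36 (edgeR adjusted p = 0.0021) without scramble replicate 1. Nfe2l2, Gsr and Txnrd1 had batch differences of 0.0042, 0.019 and -0.0050 (edgeR adjusted p = 0.946, 0.676 and 0.918). For none of the 10 genes did the interaction of batch and treatment pass (smallest unadjusted p 0.060, for Gclm). Over all 16333 genes 0 passed the interaction test in edgeR (0%), with 540 at an unadjusted p under 0.05.

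With the batch means taken out, correlations among the 10 genes ran from -0.39 (Gsr and Gpx1) to 0.92. As a description over 8 libraries, in which treatment and depth are shared by all genes, Pearson's r was 0.92 between Hmox1 and Gclc, 0.88 between Hmox1 and Gpx1 and 0.87 between Gclm and Txnrd1. It was 0.82 between Keap1 and Gpx4, both lower after Klf4 siRNA. Nfe2l2 had its highest r with Gsr (0.69), Keap1 (0.65) and Gpx4 (0.64), and r of 0.16 with Gclm, -0.19 with Gclc and -0.38 with Hmox1, its lowest. Among 9346 other genes with a mean of at least 10 CPM, those most like Nfe2l2 were Suclg2, Washc1, Rundc3a, Ndufaf5 and Sdc2 (r from 0.98 to 0.99). Those most like Gpx4 were Pkig, Dek, Nfu1, Tpm3 and Lypla2 (r from 0.98 to 0.99). With so few libraries and so many genes, such values are a description only.

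The other genes of the pathway were read from 10 lists of 123 genes, of which 104 were tested. Of these, 17 passed for Klf4 siRNA against scramble (16.3%), 11 higher and 6 lower, against 11.7% of all tested genes. Their median log2 fold change was -0.0079. Among all tested genes 797 were higher and 1112 lower. Genes named below that did not pass were chosen for their known roles after values were seen.

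**Figure D4:**
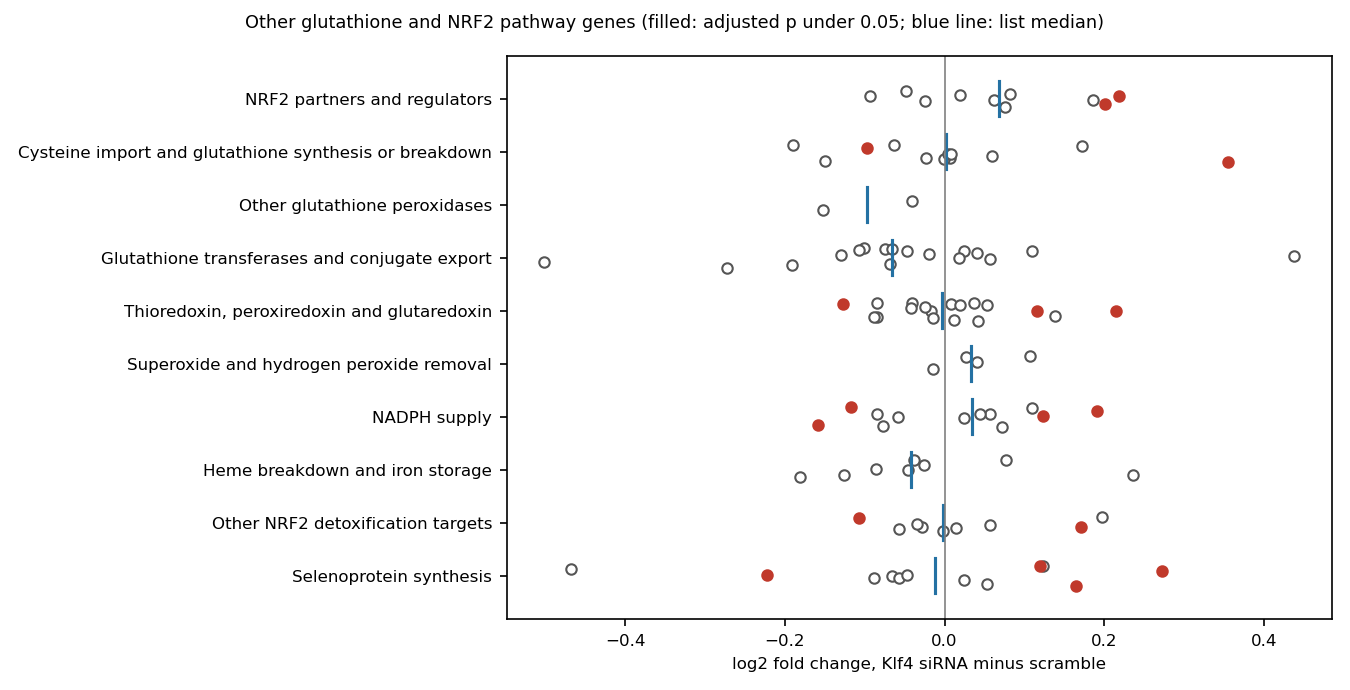
Log2 fold change for Klf4 siRNA minus scramble of the 104 tested pathway genes by list, with 1 point per gene; filled points passed an adjusted p of 0.05 and blue lines are list medians. Filled points lie on both sides of 0, and Slc7a11 (0.35) is the highest of them.

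Among NRF2's partners and regulators, 2 of 10 tested genes passed, both higher. Sqstm1 encodes p62, an autophagy receptor that binds KEAP1 and takes it to autophagosomes. It had 314, 306, 304 and 321 CPM in scramble replicates 1 to 4 and, after Klf4 siRNA, 366, 367, 351 and 370 CPM in the same order, with no overlap. It rose by 0.22 ± 0.029 on the log2 scale (SE; edgeR adjusted p = 2.87e-05), and kept its call in all 17 alternatives. Bach1 encodes a repressor that competes with NRF2 for the same elements. It rose from 55.9 ± 2.95 to 65.5 ± 3.44 CPM (SD, n = 4 each). With batch in the model, its log2 fold change was 0.20 ± 0.034 (SE; edgeR adjusted p = 0.00043), and the call also held in all 17. Cul3, the scaffold of the ligase that KEAP1 serves, had -0.093 and did not pass (edgeR adjusted p = 0.065), and the small MAF genes Mafg and Mafk had 0.082 and 0.019 (0.179 and 0.863). Exons of Sqstm1 overlap Mrnip on the opposite strand, which had at most 429 counts.

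For cysteine import and glutathione synthesis or breakdown, 2 of 12 tested genes passed. Slc7a11, the cystine carrier of system xc- and the entry point of cysteine for glutathione, was scarce at 6.57, 6.82, 9.16 and 7.98 CPM in scramble replicates 1 to 4 and, after Klf4 siRNA, 9.58, 8.98, 9.97 and 8.71 CPM in the same order. The groups overlapped across batches, since scramble replicate 3 lay above Klf4 siRNA replicates 2 and 4, but within each batch every Klf4 siRNA library lay above both controls. It rose by 0.35 ± 0.072 (SE; edgeR adjusted p = 0.0023), 0.44 within batch 1 and 0.22 within batch 2. Its call was lost in 2 of 17 alternatives, among them the fit without the batch term (edgeR adjusted p = 0.249). Lancl1, a glutathione binding protein, had -0.097 (edgeR adjusted p = 0.041) and lost its call in 11 of 17 alternatives, with an adjusted p of 0.200 without scramble replicate 1. Slc3a2, the partner chain of Slc7a11, and Gss, which completes glutathione, had 0.0076 and 0.059 (edgeR adjusted p = 0.928 and 0.511).

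None of the 17 tested glutathione transferase and conjugate export genes passed, and none of the 2 other tested glutathione peroxidases, the 4 superoxide and peroxide removing enzymes or the 8 genes of heme breakdown and iron storage. Cat, which encodes catalase, had 0.877 ± 0.399 CPM in scramble libraries and, after Klf4 siRNA, 1.11 ± 0.331 CPM (SD, n = 4 each). With batch in the model, its log2 fold change was 0.11 (edgeR adjusted p = 0.764), from 31 to 72 counts per library. Gpx3, Gpx5, Gpx7 and Gpx8 had too few counts to be tested. Sod1 and Sod2, the cytosolic and mitochondrial superoxide dismutases, had log2 fold changes of 0.040 and -0.014 (edgeR adjusted p = 0.477 and 0.824). Ftl1 and Fth1, the ferritin chains, had -0.086 and -0.026 (0.067 and 0.700).

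Of 18 tested thioredoxin, peroxiredoxin and glutaredoxin genes, 3 passed. Glrx, a cytosolic glutaredoxin, rose by 0.21 and Txn2, the mitochondrial thioredoxin, by 0.12 (edgeR adjusted p = 0.0070 and 0.0096). Prdx5, a peroxiredoxin, fell by 0.13 on the log2 scale (0.0067), and its exons overlap Trmt112 on the opposite strand, which had up to 2408 counts. All 3 lost their call without scramble replicate 1 (edgeR adjusted p = 0.061, 0.074 and 0.074 for Glrx, Txn2 and Prdx5). Glrx and Txn2 also lost it without scramble replicate 2 (0.058 and 0.077). When batch was not in the model, none of the 3 passed (edgeR adjusted p = 0.141, 0.071 and 0.064 for Glrx, Txn2 and Prdx5). Prdx1 and Srxn1, both well known NRF2 targets, had 0.0084 and -0.085 (0.921 and 0.103).

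NADPH supply had 4 genes past the threshold among 12, in both directions. Me1, the cytosolic malic enzyme, rose from 52.9 ± 1.07 to 60.6 ± 1.21 CPM (SD, n = 4 each). The log2 fold change fitted with batch was 0.19 ± 0.031 (SE; edgeR adjusted p = 0.00024), and the call held in all 17 alternatives. Pgd, of the pentose phosphate pathway, rose by 0.12 (0.011), but not past the threshold without scramble replicate 1 (0.079) or 2 (0.057), or without the batch term (0.265), and it lost its call in 4 of 17 alternatives. Idh1, the cytosolic NADP-dependent isocitrate dehydrogenase, fell by 0.16 on the log2 scale (0.0032). Its call was lost in 2 of 17 alternatives, among them the fit without the batch term (edgeR adjusted p = 0.269). G6pdx, the first enzyme of the pentose phosphate pathway, had -0.12 (edgeR adjusted p = 0.025); it was named after its value was seen, lost its call in 8 of 17 alternatives, and shares exonic bases with Ikbkg on the opposite strand (up to 3301 counts).

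Of 9 tested detoxification targets, 2 passed. Akr1b10, an aldo-keto reductase, rose by 0.17 (edgeR adjusted p = 0.014) and Ugdh, which makes UDP-glucuronate, fell by 0.11 on the log2 scale (0.036). Akr1b10 had 16.7 and 16.3 CPM in scramble libraries and, after Klf4 siRNA, 18.8, 18.6 and 19.4 CPM in batch 1, while the controls of batch 2 stood at 25.3 and 24.8 CPM and its Klf4 siRNA library at 27.5 CPM. Within each batch the treatments did not overlap, and without the batch term the adjusted p was 0.982. It lost its call in 5 of 17 alternatives, among them those without scramble replicate 1 (0.068) or 2 (0.092), and Ugdh did not pass in 10 of 17 alternatives (0.258 without scramble replicate 1).

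The list for selenoprotein synthesis had 4 of 12 tested genes past the threshold. It also holds Selenow, Selenop, Selenof and Selenok, which encode selenoproteins and not synthesis factors, and none of them passed. These and Sephs2 are counted again in the selenoprotein class below. Sepsecs, which makes selenocysteine on its tRNA, rose from 31.3 ± 4.03 to 39.7 ± 4.21 CPM (SD, n = 4 each). The log2 fold change fitted with batch was 0.27 ± 0.043 (SE; edgeR adjusted p = 0.00022). Sephs2, which makes selenophosphate, rose by 0.16 (0.034) and Secisbp2, which binds the selenocysteine insertion element, by 0.12 (0.041). Trnau1ap, a protein associated with the selenocysteine tRNA, fell by 0.22 on the log2 scale (0.00083). Without the batch term the adjusted p was 0.150 for Sepsecs and 0.315 for Trnau1ap. Sephs2 and Secisbp2 lost their call in 7 and 10 of 17 alternatives, both among others without scramble replicate 1 (edgeR adjusted p = 0.121 and 0.102). Secisbp2 was named after its value was seen.

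Because Gpx1, Gpx4 and Txnrd1 are selenoproteins, the whole annotated class was read as well, a choice made after values were seen. The annotation marks a selenocysteine codon in 24 genes, of which 20 were tested. For Klf4 siRNA against scramble 3 were lower (Selenom, Gpx4 and Selenon) and 1 higher (Sephs2), against 11.7% of all tested genes in either direction, and the median log2 fold change was -0.057. Selenom, an endoplasmic reticulum selenoprotein, fell most, from 21.2 ± 1.74 to 12.7 ± 1.24 CPM (SD, n = 4 each). With batch in the model, its log2 fold change was -0.69 ± 0.055 (SE; edgeR adjusted p = 3.35e-08), and the call held in all 17 alternatives. Selenon, of the same compartment, had -0.18 (9.02e-05). Its call was lost in 2 of 17 alternatives, among them the fit without the batch term (edgeR adjusted p = 0.681). Txnrd1 with its thioredoxin reductase relatives Txnrd2 and Txnrd3 had -0.0020, 0.042 and -0.042, none past the threshold. The other 16 tested selenoprotein genes, Gpx1 and Txnrd1 included, did not pass.

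**Figure D5:**
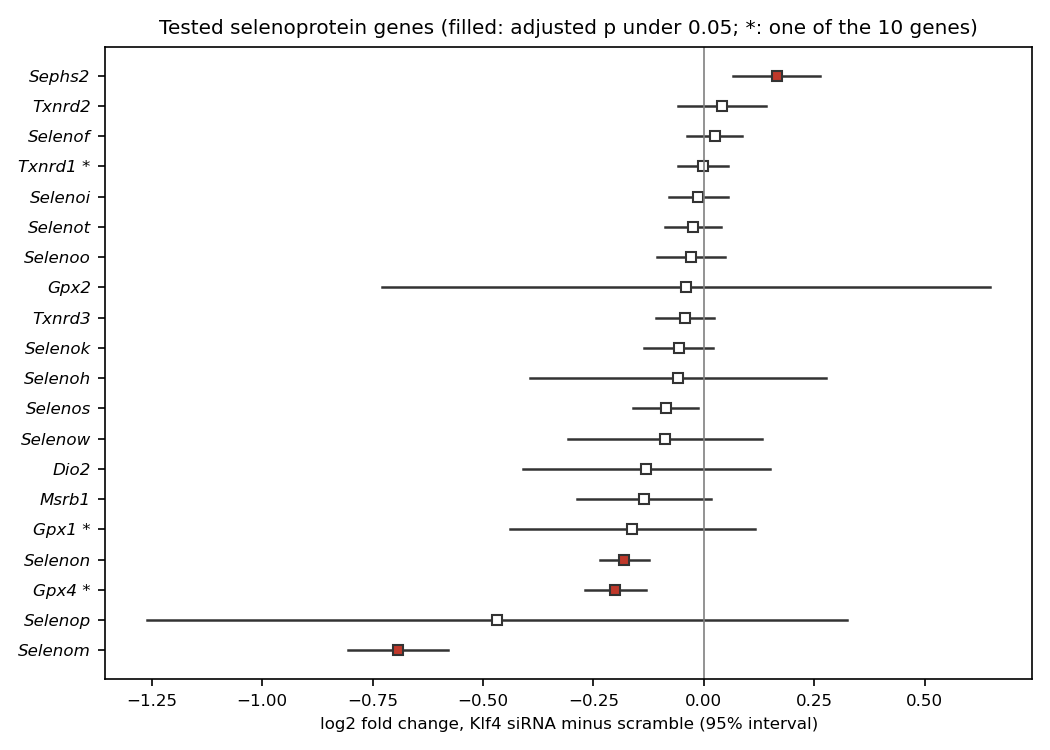
Log2 fold change for Klf4 siRNA minus scramble of the 20 tested selenoprotein genes (squares, with 95% intervals; filled, adjusted p under 0.05; asterisks mark Gpx1, Gpx4 and Txnrd1). Selenom (-0.69), Gpx4 (-0.20) and Selenon (-0.18) lie below 0 and Sephs2 (0.16) above it, while the interval of Txnrd1 is centred near 0.

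Between batches, 53 of the 104 tested pathway genes differed, 31 higher and 22 lower in batch 2, against 32.7% of all tested genes. Slc40a1, the iron exporter ferroportin, was higher in batch 2 by 1.49 ± 0.13 on the log2 scale (SE; edgeR adjusted p = 2.66e-08). Gstm7, a glutathione transferase, was higher by 0.98 and Ggt7, a gamma-glutamyl transferase relative, by 0.68 (1.83e-06 and 1.21e-11). Sod3 and Cat, the extracellular superoxide dismutase and catalase, were lower in batch 2 by more than any other gene of these lists, with -1.06 and -1.08 (5.43e-07 and 6.39e-05). These genes are only some of those named for batch by adjusted p. Others with a smaller adjusted p than Gstm7, Sod3 and Cat had smaller differences, among them Akr1b10 (0.57, edgeR adjusted p = 2.76e-09) and Hmox2 (0.46, 1.69e-07). Over whole lists the median absolute batch difference was 0.117 for the pathway genes, 0.092 for the 10 genes and 0.118 for all tested genes.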

How the data were processed

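Poly(A) RNA of 8 alphaTC6 libraries was measured by RNA-seq. The authors deposited raw counts per gene, not normalized. The submitters' processing notes name FastQC, STAR, featureCounts, DESeq2 and the build mm10, with no roles; the use of strand and of reads with several matches is not given in the sources used here. All 55536 identifiers matched GENCODE M21 (GRCm38), and 0 columns of values were unmapped.

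Genes were kept with filterByExpr by treatment (16333), scaled with TMM (factors 0.964 to 1.02) and fitted for batch and treatment in edgeR 4.0.16 (R 4.3.3) with robust quasi-likelihood and 5 residual degrees of freedom. The threshold was an adjusted p of 0.05 over all tested genes (Benjamini-Hochberg, two-sided). The standard error of a log2 fold change is its size divided by the square root of F, and 95% intervals use the moderated degrees of freedom. Differences within a batch compare mean log2 CPM (prior count 2). The fit was tested on simulated counts. Counts include any PCR duplicates, so precision rests on the spread between libraries.

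Members and lists were chosen with earlier results of these data known. Up to 3 called genes per list were named, in order of adjusted p, separately for treatment and batch, and for the latter only some of them are printed. Genes like Nfe2l2 and like the member with the smallest adjusted p were ranked by Pearson's r. Alternatives were DESeq2 size factors, library size alone, no filter, DESeq2 1.42.0, limma-voom 3.58.1, no batch term, a replicate block, batch 1 alone, scramble libraries alone and each library left out; summing Gpx4 with its copy was added after the data were seen.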

Additional observations from a re-analysis of the deposited data

Results flagged for a closer look

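In the 52 groups of 4 libraries checked (the genes named for treatment, in each treatment), 2 held a library far from the rest, where chance gives about 1 in 20 groups, or 2.6. Keap1 was lowest in Klf4 siRNA replicate 4, at 103.6 CPM, with a gap to the next library of 0.917 of the range of the 4; the others lay between 106.8 and 107.1 CPM, so the whole range was small. Akr1b10 was highest in Klf4 siRNA replicate 3, at 27.5 CPM against 18.6 to 19.4 CPM in the others (0.906 of the range). That library is the only Klf4 siRNA library of batch 2, where both controls were also higher (24.8 and 25.3 CPM). The part of batch in this position was taken up by the batch term and not tested further.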

How the results depend on the processing

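Gpx4 stayed lower and past the threshold in 16 of 17 alternatives, and Keap1 in 12. Of the 10 genes, 2 were called in the comparison as reported, 1 in batch 1 alone and 0 without the batch term, and 1 to 2 with a library left out. For all genes the count went from 1909 to 1232 in batch 1 alone and 409 without the batch term, and ranged from 934 (without scramble replicate 1) to 2021 with a library left out; it was 1012 without scramble replicate 2 and 1232 without Klf4 siRNA replicate 3. For the pathway lists it went from 17 to 3 without the batch term, and ranged from 7 (without scramble replicate 1) to 21, with 9 without scramble replicate 2. Klf4 had a log2 fold change of -1.39 in batch 1 alone (edgeR adjusted p = 0.104) and from -1.46 to -1.24 with a library left out. For batch, 1 of the 10 genes was called in scramble libraries alone and 0 (without scramble replicate 4) to 3 with a library left out. The interaction was called for 17 genes with no filter and 0 to 13 (without scramble replicate 3) with a library left out, and for none of the 10 genes. The cause was not tested. In place of batch, a replicate block gave 1220 genes and 1 of the 10 (Gpx4; Keap1 had an edgeR adjusted p of 0.059). Deviations of same-numbered libraries correlated at 0.49, 0.42, 0.72 and -0.34 for numbers 1 to 4. Both libraries of a number share a batch for 1, 2 and 3 but not for 4. As 1 pair was not above 0.1, the numbers were not taken to pair the samples. Batch was not taken out of these deviations, so the correlations cannot decide whether the numbers are pairs. Of 4 scramble libraries, 2 correlated best with their own number.

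With a library left out, small treatment differences ran from -0.072 to 0.015 for Gclc, -0.16 to 0.071 for Hmox1, -0.21 to 0.047 for Nqo1, -0.028 to 0.0047 for Gsr and -0.020 to 0.016 for Txnrd1, changing sign. They stayed negative from -0.22 to -0.070 for Gpx1 and from -0.083 to -0.0055 for Gclm. None of these passed. Batch differences changed sign for Gsr (-0.019 with library size alone, -0.0069 in scramble libraries alone, -0.0048 to 0.043 with a library left out), for Nfe2l2 (-0.034, -0.014 and -0.012 to 0.018) and for Txnrd1 (-0.026 to 0.011 with a library left out). At 19 to 50 counts, depth limits Nqo1 most among the 10 genes.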
